A study of Tupaia belangeri with 6 samples.

Results

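Heat shock and chaperone genes were examined in single nuclei of the hippocampus of the tree shrew (TS, Tupaia belangeri). The genes were HSPA8, HSPA5, HSPA4, HSP90AA1, HSP90AB1, HSPH1, DNAJB1, DNAJA1, HSPB1 and CRYAB, chosen by symbol, and they are 10 of the 83605 features of the annotation. Of these 10 genes, 6 had counts, while HSPA8, HSP90AA1, HSP90AB1 and DNAJA1 were listed at 0 in every nucleus barcode of every library. The study set 3 TSs with Alzheimer's-like pathology (ALP, titled AD) beside 3 age-matched control TSs (titled Normal), with 1 single-nucleus RNA-seq library per animal. All animals were aged TSs of 5 to 6 years, and the strain was not given. No engineered allele is described for them, and both groups were anesthetized for imaging and before perfusion. ALP TSs were picked for poor performance in a pipeline maze after natural aging, so the groups differ by a behavioural selection and not by an intervention, and the sex behind each library was not in the labels.

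Chaperones bind proteins that are not yet folded, or that have come unfolded, and keep them from clumping. HSP70 proteins do so in cycles of ATP use that are started by J-domain partners (the DNAJ genes) and reset by nucleotide exchange factors such as the HSP110 proteins, and many clients are then passed to HSP90. Small heat shock proteins hold unfolded chains without using ATP. Heat shock factors raise the transcription of many of these genes under stress in the cytosol, while HSPA5, the HSP70 of the endoplasmic reticulum (ER), is raised by the unfolded protein response of that organelle. In the brain the chaperones are studied for their contact with aggregating proteins such as tau and amyloid-beta.

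Of 37603 barcodes, 28233 nuclei passed the filters on genes and mitochondrial UMIs, 14387 from control and 13846 from ALP TSs. The filters are those in the study's methods. Kept nuclei had a median of 1502 to 2188 unique molecular identifiers (UMIs, counts of captured RNA molecules) per library, and 0.637% to 1.29% of the barcodes of a library recurred in another. Clustering without the chaperone genes gave 11 classes named from markers. The 10 described here were called Astro-like (astrocytes), Endo-like (endothelial cells), Micro-like (microglia), Oligo-like (oligodendrocytes), OPC-like (their progenitors), Gran-like (dentate granule neurons), Pyra-like (pyramidal neurons), InN-like (inhibitory neurons), Ependymal-like, and other excitatory neurons. The summed level of each class's own markers was 2.23 to 103 times that in the remaining classes, lowest for Gran-like and Pyra-like nuclei. NRGN and GAD2, markers of excitatory and inhibitory neurons, were listed at 0 in all libraries. These held between 162 (Ependymal-like) and 8044 (Oligo-like) nuclei. The other class, of 102 nuclei with mural and fibroblast markers, fell under a limit of 20000 UMIs per library that was set after seeing the data, and 2 clusters of low depth with 1851 and 1131 nuclei were left unnamed. Levels are given per 1000000 UMIs of a class in a library (CPM), as mean ± SD over the 6 libraries unless a group is named. SDs over the 6 libraries take in both groups and any difference between them. Intervals and the SDs of a named group cover only the spread between 3 animals per group.

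The 4 genes without counts were not alone in the annotation. HSPA8, HSP90AA1, HSP90AB1 and DNAJA1 had 15, 14, 9 and 34 features with the same symbol followed by "li" and a number, and 1 feature held most UMIs of each such set. HSPA8 is the constitutive cytosolic HSP70, and HSPA8li1 held 18989 UMIs over all barcodes, the whole of its set. HSP90AA1 encodes the inducible HSP90 of the cytosol, and HSP90AA1li9 held 14683 of the 14759 UMIs of its set. DNAJA1 encodes a J-domain partner of HSPA8, and DNAJA1li14 held 9171 and DNAJA1li13 held 2213 of the 11623 UMIs of its set. HSP90AB1 encodes the constitutive HSP90, and HSP90AB1li8 held only 66 UMIs. The other 6 genes had no such features, and they held 7701 (HSPA4), 6230 (HSPA5), 19594 (HSPH1), 1930 (DNAJB1), 2225 (HSPB1) and 426 (CRYAB) UMIs. Among protein-coding symbols shared with the RefSeq gene table, 31.4% of the 1949 with an "li" feature were listed at 0, against 9.27% of the 12919 without one. The "li" features were singled out after their values were seen, and they are described under their own names. No value was assigned to the 4 genes, except in an alternative setting that added the "li" features to their gene. For short, the "li" features are called copy features below. Whether they are the genes themselves, copies of them or parts of them cannot be told from the labels. How reads were divided between these features was not tested.

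HSPA5 (BiP), the HSP70 that binds newly made chains in the ER, was highest in Endo-like nuclei at 233 ± 89.5 CPM. Of the 10 classes Astro-like nuclei came next at 82.5 ± 33.7 CPM, and Pyra-like nuclei were lowest at 25.3 ± 9.30 CPM. In the mural and fibroblast class the mean was 94.6 ± 104 CPM over 17 UMIs, with ALP 2 at 299.7 CPM and the other 5 libraries between 26.95 and 92.8 CPM. All 6 libraries had more HSPA5 in Endo-like than in Astro-like nuclei. HSPA4, a member of the HSP110 family that resets HSP70, was counted in all 10 classes. Its class means ran from 36.4 ± 17.7 CPM in OPC-like to 72.0 ± 46.2 CPM in Ependymal-like nuclei, and the libraries of these 2 classes overlapped.

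HSPH1 (HSP105), the other HSP110 protein of the set, was highest in Ependymal-like nuclei at 268 ± 126 CPM, a mean that rests on 96 UMIs. The next classes were Pyra-like nuclei at 149 ± 39.3 CPM and InN-like nuclei at 122 ± 61.9 CPM. Astro-like nuclei were lowest at 57.6 ± 30.6 CPM, below the Oligo-like nuclei at 68.8 ± 33.5 CPM in 5 of 6 libraries. DNAJB1 (HSP40), which delivers clients to HSP70 and starts its ATP cycle, was high in another set of classes. It reached 35.5 ± 27.6 CPM in Endo-like nuclei, over 42 UMIs and with Control 2 at 0, and 30.3 ± 4.90 CPM in Oligo-like nuclei. Endo-like nuclei were above Oligo-like nuclei in 4 of 6 libraries. The means of DNAJB1 stayed at or below 9.46 CPM in Pyra-like, InN-like, Gran-like and other excitatory nuclei. Oligo-like nuclei supplied 33.5% of all DNAJB1 UMIs and 18.5% of all UMIs.

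**Figure D1:**
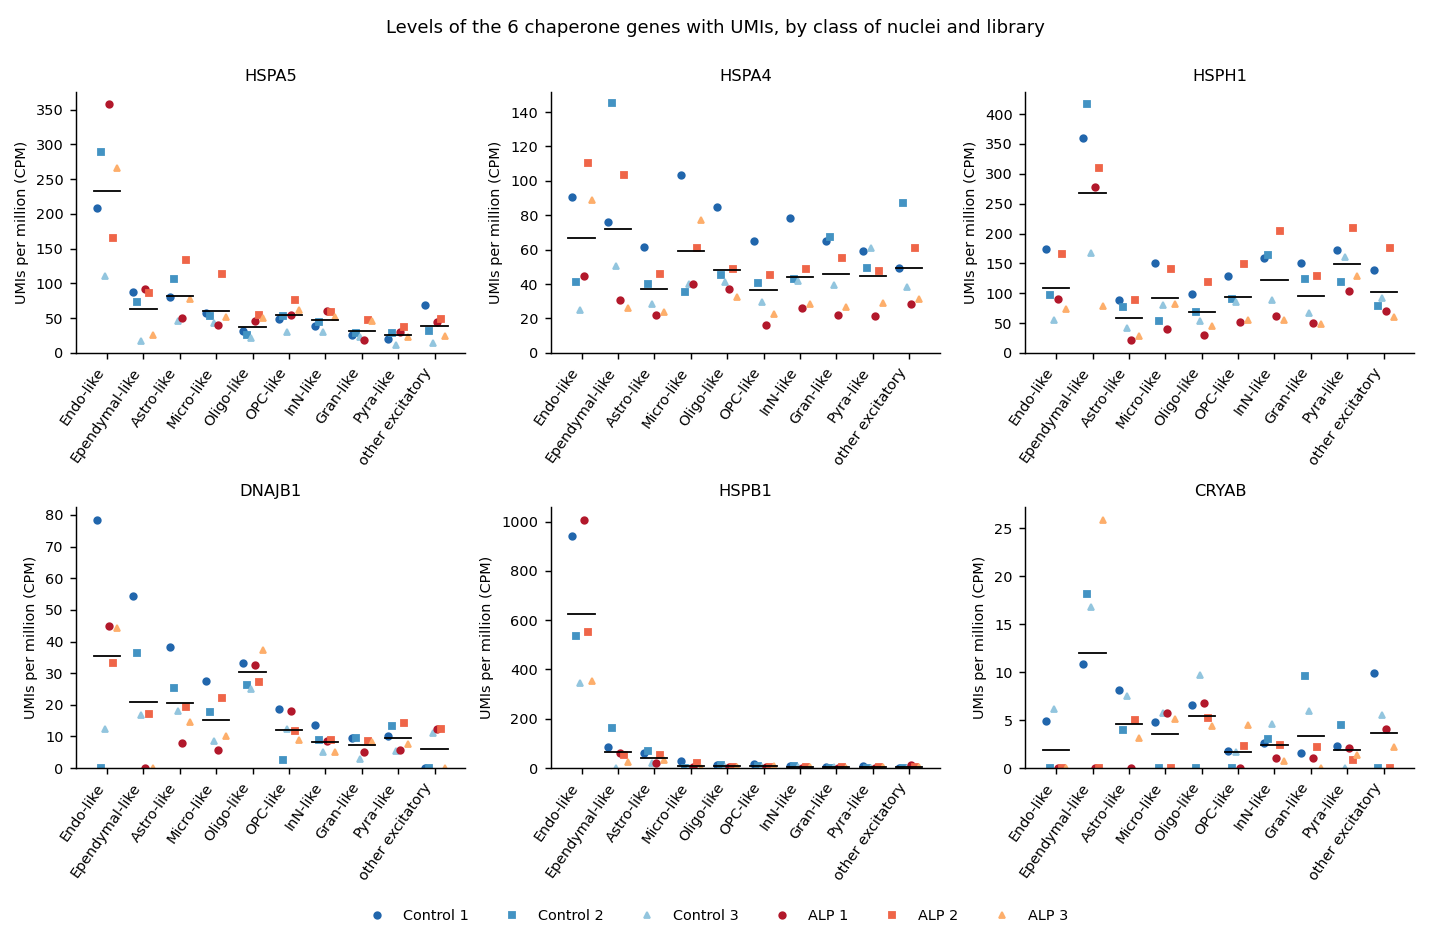
Level of each of the 6 genes with counts (y axis, CPM, linear from 0, a different range in each panel) in 10 classes of nuclei (x axis). Each point is 1 library, blue for control and red to orange for ALP, and the black line is the mean of the 6 libraries; HSPB1 stands at 346 to 1008 CPM in Endo-like nuclei and at a mean of at most 65.0 CPM in the other classes.

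HSPB1 (HSP27), a small heat shock protein that also binds actin and intermediate filaments, was concentrated in Endo-like nuclei. There it was at 942, 538 and 346 CPM in the control and at 1008, 552 and 355 CPM in the ALP libraries. The highest library of any other class was at 163 CPM, in Ependymal-like nuclei, and the means fell to 65.0 ± 56.8 CPM in Ependymal-like, 42.2 ± 21.5 CPM in Astro-like and 9.74 CPM or less in all other classes. With every nucleus thinned to 1000 UMIs, 37.4% ± 11.7 of Endo-like nuclei had an HSPB1 UMI, against 0.327% ± 0.232 of Gran-like nuclei. The Gran-like share was taken as the level of free RNA on the assumption that these nuclei lack the gene, which was not tested. Before thinning these shares were 37.6% and 0.866%, at median depths of 1200 and 2907 UMIs, and 311 of 497 Endo-like nuclei were deep enough for the thinning. Endo-like nuclei made up 1.35% of all UMIs and 44.4% of the HSPB1 UMIs. CRYAB (alpha B-crystallin), the other small heat shock protein and a known product of oligodendrocytes and astrocytes, had 222 UMIs in all kept nuclei. Its class means lay between 1.70 and 11.96 CPM.

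Within Astro-like nuclei HSPB1 was not evenly spread. A cluster of 136 nuclei, led by SERPINA3, GFAP, CHI3L1 and VIM, genes known from reactive astrocytes, had HSPB1 at 356, 351 and 198 CPM in the control and at 254, 358 and 119 CPM in the ALP libraries. The main Astro-like cluster of 3094 nuclei had 41.4, 53.5 and 15.9 CPM in the control and 14.3, 32.02 and 27.4 CPM in the ALP libraries. Each library had more HSPB1 in the small cluster, which is a description over 86 UMIs with no test, since clusters were formed from the same nuclei. HSPA8li1 stood at 169 to 671 CPM in the small and at 126 to 215 CPM in the main cluster. HSP90AA1li9 stood at 84.7 to 873 CPM in the small and at 53.0 to 155 CPM in the main cluster, and DNAJA1li14 at 0 to 315 CPM and 49.3 to 128 CPM. GFAP, an intermediate filament of astrocytes, was at 762 to 2778 CPM in the small and at 311 to 460 CPM in the main cluster, and the summed Endo markers at 0 to 198 CPM (18 UMIs) and 26.5 to 69.0 CPM. The small cluster held no marked doublets.

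Of the copy features, HSPA8li1, HSP90AA1li9 and DNAJA1li14 had their highest class mean in Endo-like nuclei. So did HSPA5, DNAJB1 and HSPB1, but not HSPA4, HSPH1 and CRYAB. HSPA8li1 was at 1104, 896 and 574 CPM in the control and at 1052, 949 and 577 CPM in the ALP Endo-like nuclei. The next classes were Ependymal-like at 386 ± 222 CPM and Astro-like at 198 ± 40.6 CPM, and Pyra-like nuclei were lowest at 94.2 ± 17.9 CPM. HSP90AA1li9 was at 643 ± 220 CPM in Endo-like and 639 ± 523 CPM in Ependymal-like nuclei, and no other class mean passed 166 CPM (Oligo-like). Of the 10 classes Endo-like nuclei were highest in DNAJA1li14 as well, at 250 ± 94.9 CPM, and Pyra-like nuclei were lowest at 43.7 ± 16.2 CPM. DNAJA1li13 did not follow DNAJA1li14, with class means between 4.69 and 24.4 CPM and its highest value in other excitatory neurons. The unnamed low-depth cluster of 1131 nuclei stood above Endo-like nuclei in HSP90AA1li9 (887 CPM) and DNAJA1li14 (360 CPM), but not in HSPA8li1 (831 CPM).

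**Figure D2:**
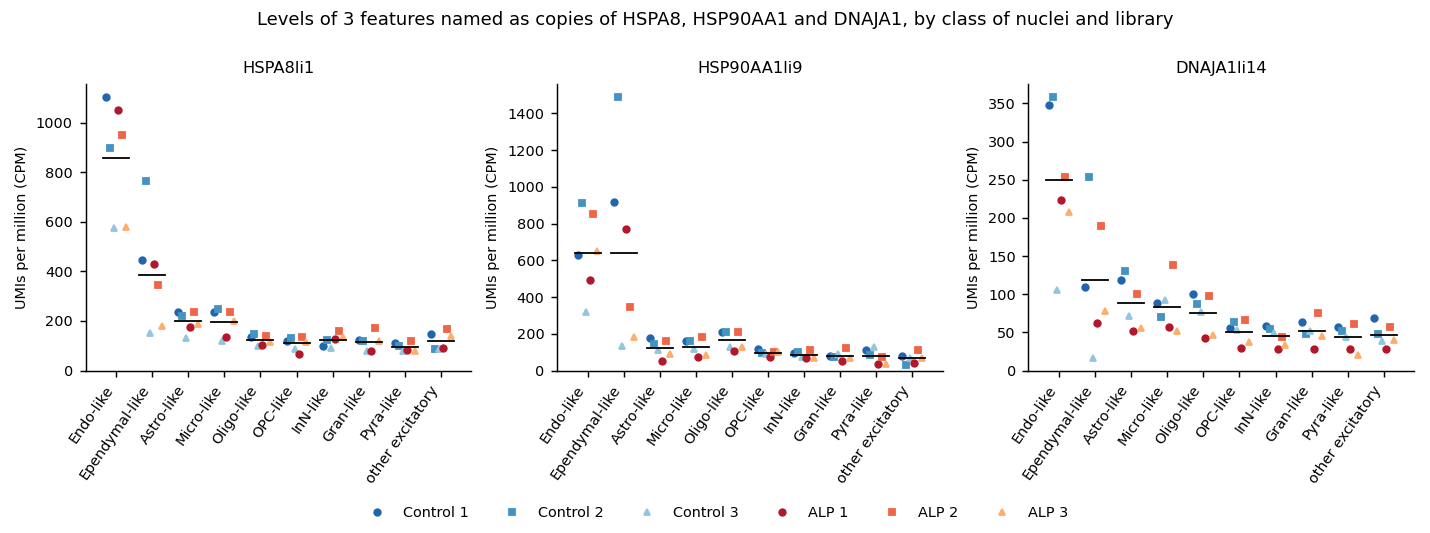
Level of 3 copy features under the symbols HSPA8, HSP90AA1 and DNAJA1 in 10 classes (x axis). The y axis is in CPM, linear from 0, with a different range in each panel. Each point is 1 library and the line is the mean of 6. Endo-like nuclei have the highest mean in each panel, 859, 643 and 250 CPM, and HSP90AA1li9 in Ependymal-like nuclei runs from 134 to 1488 CPM.

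Classes that are neighbours in these orders were then compared. Over the 6 genes with counts, 54 pairs of neighbouring classes were compared within libraries by an exact two-sided sign-flip permutation test, whose smallest possible p with 6 libraries is 0.03125. That value was reached by 4 pairs, HSPA5 in Endo-like over Astro-like, HSPB1 in Endo-like over Ependymal-like and in Astro-like over Micro-like, and HSPA4 in InN-like over Astro-like nuclei. After adjustment over the 54 pairs the lowest exact adjusted p was 0.422. An adjusted p under 0.05 would have needed at least 34 pairs at the smallest p, so that the adjusted values do not show that neighbours are alike, and the libraries of HSPB1 in Endo-like and Ependymal-like nuclei did not overlap. In log2(CPM + 1) the mean differences of these pairs were 1.49, 4.12, 3.22 and 0.26, each with the same sign in 6 of 6 libraries.

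The genes most alike to each were sought among genes with a mean of at least 20 CPM, by Pearson's r of log2(CPM + 1) over the 60 sums of 10 classes and 6 libraries. These sums share libraries and depth, so r is given as a description. HSPA5 was most like NDUFB9li1 (r = 0.861), JTB (0.847) and PPIAli29 (0.846). HSPA4 and HSPH1 stood near each other, HSPH1 being the second most alike to HSPA4 and HSPA4 the most alike to HSPH1 (r = 0.660). HSPH1 was also like FAM183A (0.612) and DNAH9 (0.609), the latter an axonemal dynein of motile cilia that is among the Ependymal markers. HSPB1 was most like RPS27Ali1 (0.879), SUMO2 (0.874) and SLC2A1 (0.869), the last the glucose transporter of the blood-brain barrier. DNAJB1 was most like SPART (0.794), SP110 (0.747) and SMC1A (0.683), and CRYAB reached at most 0.486 (FAM185A).

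The comparison of ALP with control TSs asked whether the level of these genes within a class differed with the pathology. The test was edgeR's quasi-likelihood test on the sums of each library within a class, with Benjamini-Hochberg adjustment over all genes of the class. A gene was called where the adjusted p was under 0.05 and the log2 fold change lay beyond 0.25 on either side. HSPA5 in Oligo-like nuclei was the only call, and it was higher in ALP TSs. The other tested genes, HSPA4, HSPH1, DNAJB1, HSPB1 and CRYAB, were called in no class, nor in the sum of all nuclei.

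In Oligo-like nuclei, HSPA5 was at 31.0, 26.4 and 21.0 CPM in Control 1, 2 and 3 and at 45.5, 53.8 and 49.8 CPM in ALP 1, 2 and 3. Every ALP library lay above every control library, with means of 49.7 ± 4.16 and 26.1 ± 4.97 CPM (SD, n = 3 each). The value of Control 2 rests on only 166 Oligo-like nuclei with 265112 UMIs of all genes. The other libraries held 1198 to 2258 Oligo-like nuclei. The log2 fold change was 1.01 (SE 0.23, 95% confidence interval 0.50 to 1.53) with an edgeR adjusted p of 0.0340, over 437 UMIs. This was 1 of 6 tested genes, where 4.7% of all 11425 genes tested in Oligo-like nuclei were called, 1.89% of them as higher, and 22.2% had groups that did not overlap. The call was lost with DESeq2 (adjusted p = 0.0674, with 2.89% of genes called) and with the replicate block (adjusted p = 0.0715, with 2.4% called). It was also lost without Control 3 (edgeR adjusted p = 0.161), ALP 1 (0.110) or ALP 3 (0.164). In these fits only 14 of 11757, 3 of 12561 and 1 of 12278 tested genes were called at all. HSPA5 stayed higher in ALP under all 15 settings (log2 fold change 0.81 to 1.26).

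The Oligo-like nuclei of the groups did not share their clusters evenly. Of 5 clusters, those with TNFAIP6 and with RNASE1 among their leading genes held 1387 and 1249 ALP nuclei and 154 and 204 control nuclei, and the other 3 held more control nuclei. In the ALP-rich clusters HSPA5 was at 32.1, 21.4 and 18.2 CPM in the control and 40.3, 61.1 and 57.2 CPM in the ALP libraries. In the control-rich clusters it was at 30.9, 29.1 and 21.4 CPM in the control and 56.2, 47.1 and 32.7 CPM in the ALP libraries. Groups did not overlap in either set (background 20.1% and 19.3% of genes), over 190 and 247 UMIs of HSPA5. The control values of the ALP-rich clusters rest on few nuclei and lie near the floor. In the cluster with TNFAIP6 alone Control 1 was at 0 CPM. Neither difference passed the edgeR test alone, with log2 fold changes of 1.21 (adjusted p = 0.131) and 0.81 (adjusted p = 0.192). In these fits 99 of 6925 and 165 of 8069 tested genes were called. In single clusters the groups overlapped in 3 of 5. Median depth moved with the groups, from 1419 to 1647 UMIs in control Oligo-like nuclei and from 1167 to 1324 in ALP ones, and its part in the result was not tested. The summed level of the 9 Endo markers, where HSPA5 is highest, ran from 57.3 to 94.3 CPM in the control and from 60.1 to 94.4 CPM in the ALP Oligo-like nuclei, so these overlapped, and so did the Astro, excitatory and InN markers. The 9 OPC markers did not overlap, at 1082 to 1524 CPM in the control and 901 to 1066 CPM in the ALP Oligo-like nuclei, nor did the 9 Micro markers, at 26.4 to 30.3 CPM and 21.4 to 25.6 CPM. All genes of these 2 lists had UMIs, and their part in the results in Oligo-like nuclei was not tested.

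Outside Oligo-like nuclei HSPA5 did not pass, although its mean was higher in ALP in 10 of 10 classes, which share the same 6 animals. In InN-like nuclei it was at 38.0, 44.2 and 29.3 CPM in the control and at 59.8, 59.5 and 52.2 CPM in the ALP libraries, with no overlap (background 25.1%). The log2 fold change there was 0.79 (SE 0.20, edgeR adjusted p = 0.0748), and it passed without Control 2 (adjusted p = 0.0408, with 3.71% of genes called) and without the filter on low counts (adjusted p = 0.00960, with 3.49% called). In OPC-like nuclei the values were 49.1, 53.1 and 30.3 CPM against 54.2, 76.6 and 61.3 CPM, again with no overlap (background 18.5%), and the log2 fold change was 0.64 (SE 0.26, edgeR adjusted p = 0.249). In the remaining 5 tested classes it lay between 0.34 (Endo-like) and 0.77 (Pyra-like), with adjusted p of at least 0.317. Control 3 had the lowest HSPA5 of the control libraries in 10 of 10 classes.

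**Figure D3:**
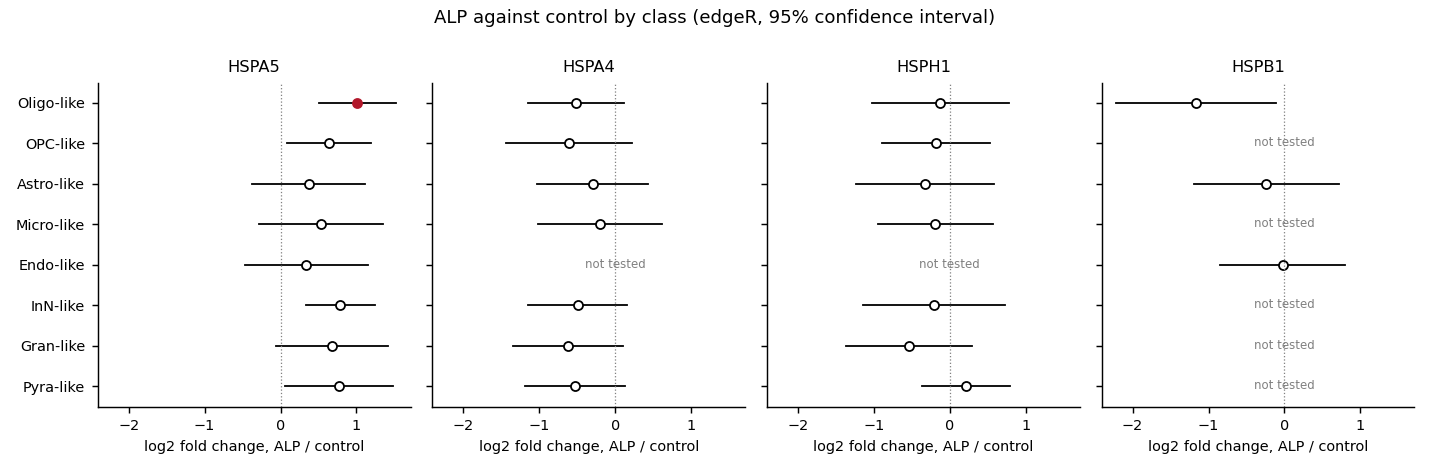
Log2 fold change of ALP over control (x axis) with its 95% confidence interval from edgeR for HSPA5, HSPA4, HSPH1 and HSPB1 in 8 classes (y axis). The filled red point, HSPA5 in Oligo-like nuclei at 1.01, is the call; open points were tested and not called, and classes where the gene fell under the count filter are marked as not tested.

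The counts of called genes elsewhere were 0 of 5 tested in Astro-like nuclei (background 0.207%), 0 of 3 in Micro-like (0.888%), 0 of 3 in OPC-like (1.63%), 0 of 3 in Gran-like (2.05%) and 0 of 4 in InN-like nuclei (0.995%). They were 0 of 2 in Endo-like nuclei, 0 of 4 in Pyra-like nuclei and 0 of 6 in all nuclei, comparisons in which edgeR called 0% of all genes. At an unadjusted p under 0.05 there was HSPA5 in OPC-like, Pyra-like and InN-like nuclei, and HSPB1 in Oligo-like nuclei and in all nuclei. Groups of libraries did not overlap for 1 of 6 tested genes in Oligo-like (background 22.2%) and 1 of 3 in OPC-like nuclei (18.5%). Nor did they for 1 of 4 in InN-like (25.1%) and 1 of 4 in Pyra-like nuclei (20.5%), and for 1 of 6 in all nuclei (CRYAB, background 27.9%). They overlapped for all tested genes in Astro-like (background 21.7%), Micro-like (15.3%), Gran-like (21.8%) and Endo-like nuclei (8.94%). DESeq2 called none of these genes in any class. Over all genes it called 0 in Endo-like, 65 in Pyra-like and 1719 in all nuclei, where edgeR called 0 in each. At an unadjusted p under 0.05 DESeq2 had 146, 1297 and 5744 genes there, and edgeR had 93, 1686 and 5323.

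HSPA4 pointed the other way from HSPA5, with a lower ALP mean in 9 of 10 classes and no call. The ALP mean was likewise higher in only 1 class for HSPH1, in 2 for HSPB1, 3 for CRYAB and 4 for DNAJB1. Such counts use CPM without the normalization factors of edgeR, so their direction can differ from that of the fold changes. HSPH1 in Pyra-like nuclei had a lower ALP mean (147.2 against 150.5 CPM) and a log2 fold change of 0.21. CRYAB in Oligo-like nuclei had a higher one (5.48 against 5.41 CPM) and a log2 fold change of -0.31. In Pyra-like nuclei HSPA4 was at 58.9, 49.2 and 60.9 CPM in the control and at 21.7, 47.7 and 28.8 CPM in the ALP libraries. These groups did not overlap (background 20.5%). The log2 fold change was -0.53 (SE 0.30, edgeR adjusted p = 0.472). Across the 7 classes tested the log2 fold change of HSPA4 lay between -0.62 (Gran-like) and -0.20 (Micro-like), with adjusted p of at least 0.330.

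HSPH1 and DNAJB1 were not called in any class. HSPH1 in Oligo-like nuclei was at 98.4, 67.9 and 53.0 CPM in the control and at 29.9, 118 and 45.3 CPM in the ALP libraries, where ALP 2 was above and ALP 1 and ALP 3 below every control. Its log2 fold change was -0.12 (95% confidence interval -1.03 to 0.78). DNAJB1 in Oligo-like nuclei, its second highest class, was at 33.3, 26.4 and 24.8 CPM and at 32.6, 27.2 and 37.5 CPM, with a log2 fold change of 0.27 (95% confidence interval -0.29 to 0.82). In Astro-like nuclei DNAJB1 was at 38.1, 25.4 and 18.1 CPM in the control and at 7.97, 19.3 and 14.5 CPM in the ALP libraries (log2 fold change -0.72, SE 0.37, edgeR adjusted p = 0.351).

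For HSPB1 the sum of all nuclei is given beside the class in which it is highest. Over all nuclei it was at 42.4, 34.9 and 13.5 CPM in the control and at 10.3, 15.3 and 11.2 CPM in the ALP libraries, so that Control 3 lay below ALP 2. The log2 fold change was -1.09 (SE 0.38, edgeR adjusted p = 0.135), and it passed without the filter on low counts (adjusted p = 0.00130, with 6.16% of genes called). In Endo-like nuclei alone it was -0.02 (95% confidence interval -0.84 to 0.80). The summed Endo markers over all nuclei moved with it, from 164 to 275 CPM in the control and from 102 to 118 CPM in the ALP libraries. Endo-like nuclei were 3.13%, 2.60% and 1.83% of the control and 0.713%, 1.13% and 0.914% of the ALP nuclei of a library, at median depths of 1127 to 1434 and 879 to 1026 UMIs. The part of these shares in the result over all nuclei was not tested. In Oligo-like nuclei HSPB1 was at 14.2, 11.3 and 5.90 CPM in the control and 6.11, 3.66 and 3.45 CPM in the ALP libraries, 90 UMIs in all, with a log2 fold change of -1.17 (SE 0.48, edgeR adjusted p = 0.188). CRYAB in Oligo-like nuclei had a log2 fold change of -0.31 (95% confidence interval -1.40 to 0.78) over 75 UMIs.

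The copy features gave no call in any class either. HSPA8li1 in InN-like nuclei was at 99.9, 121 and 90.1 CPM in the control and at 126, 158 and 136 CPM in the ALP libraries, which did not overlap (background 25.1%). Its log2 fold change was 0.59 (SE 0.16, edgeR adjusted p = 0.0847). In the other classes HSPA8li1 lay between -0.05 (Endo-like) and 0.30 (Gran-like) on the log2 scale. HSP90AA1li9 in Pyra-like nuclei was at 113, 82.8 and 127 CPM in the control and at 33.8, 73.9 and 37.8 CPM in the ALP libraries, with a log2 fold change of -0.88 (SE 0.29, edgeR adjusted p = 0.245). In InN-like nuclei the 2 DNAJA1 features had fold changes of opposite sign, and the groups overlapped for neither (background 25.1%). DNAJA1li13 was at 12.2, 17.2 and 11.8 CPM in the control and at 27.6, 17.9 and 24.6 CPM in the ALP libraries (log2 fold change 0.94, SE 0.30, edgeR adjusted p = 0.124). DNAJA1li14 was at 58.6, 54.7 and 48.9 CPM and at 27.6, 44.4 and 34.1 CPM (log2 fold change -0.45, SE 0.20, edgeR adjusted p = 0.251). Adding all copy features to their gene gave 0 calls for HSPA8, HSP90AA1 and DNAJA1.

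Other genes of the chaperone network were described from lists chosen with earlier results known. In Oligo-like nuclei, 12 of the 20 genes for ER chaperones and the unfolded protein response were tested and 10 had a positive log2 fold change, with a median of 0.53 where all genes had 0.00. The sign was positive for 11 of 13 tested genes of this list in InN-like, 9 of 13 in Pyra-like and 9 of 11 in Gran-like nuclei. It was positive for 8 of 11 in Astro-like, 7 of 11 in OPC-like, 6 of 9 in Micro-like and 0 of 2 in Endo-like nuclei. In Oligo-like nuclei, where 4.7% of all tested genes were called, CALR, a calcium-binding ER chaperone of glycoproteins, was the only one called from this list. It was at 47.2, 49.0 and 36.2 CPM in the control and at 105, 90.9 and 92.6 CPM in the ALP libraries (log2 fold change 1.25, SE 0.20, edgeR adjusted p = 0.0140). Among 3 tested genes of the HSP70 and HSP110 families beyond the 10, HSPA13, an HSP70-like protein of the ER, was called, at 14.5, 15.1 and 25.7 CPM against 42.1, 37.6 and 44.4 CPM (log2 fold change 1.20, SE 0.28, edgeR adjusted p = 0.0343). FKBP5, a co-chaperone of the glucocorticoid receptor with HSP90, was called as lower among 12 tested co-chaperones. It was at 128, 52.8 and 208 CPM in the control, a wide range, and at 31.9, 42.8 and 42.9 CPM in the ALP libraries (log2 fold change -1.74, SE 0.33, edgeR adjusted p = 0.0189). In the ALP-rich clusters the groups overlapped for FKBP5, at 139, 21.4 and 237 CPM against 36.3, 40.4 and 41.65 CPM. In the control-rich clusters they did not (background 19.3%). Among 5 tested immediate-early genes FOS was called, at 5.12, 7.54 and 1.26 CPM against 14.3, 15.7 and 15.3 CPM over 105 UMIs (log2 fold change 2.11, SE 0.49, edgeR adjusted p = 0.0346). In the control-rich clusters the groups overlapped for FOS, at 5.40, 11.65 and 1.43 CPM against 8.33, 13.03 and 9.79 CPM. In the ALP-rich clusters FOS was at 0 in every control library and at 17.1, 18.55 and 17.65 CPM in ALP (background 20.1%), over 59 UMIs. These clusters held only 154 and 204 control nuclei, so the values of 0 do not show that FOS was absent. For CALR and HSPA13 the groups did not overlap in either set (background 20.1% in the ALP-rich and 19.3% in the control-rich clusters). Each of these 4 calls was lost without Control 3, ALP 1 or ALP 3 (edgeR adjusted p between 0.0722 and 0.164). In these fits only 14 of 11757, 3 of 12561 and 1 of 12278 genes were called at all. The call of HSPA13 was also lost without Control 1 (edgeR adjusted p = 0.107, with 298 of 12053 genes called). FOS was not called by DESeq2 (adjusted p = 0.0512) or with the replicate block (adjusted p = 0.0603). None of the 18 J-domain proteins, 7 chaperonins, 2 small heat shock proteins, 1 HSP90 protein (TRAP1) and 1 heat shock factor tested was called, and their median log2 fold changes were 0.05, 0.02, 0.13, -0.05 and 0.40. Outside Oligo-like nuclei CALR, HSPA13, FKBP5 and FOS were not called where tested, but some log2 fold changes there were of like size. HSPA13 was not tested in Endo-like and Micro-like nuclei, nor FKBP5 in Endo-like nuclei. Among the other classes FOS was tested only in Astro-like nuclei. HSPA13 lay between 0.45 (Astro-like) and 1.23 (InN-like), and CALR between -0.09 (Endo-like) and 0.96 (InN-like). FKBP5 lay between -1.88 (Pyra-like) and -0.74 (Micro-like), and FOS was at 1.68 in Astro-like nuclei.

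**Figure D4:**
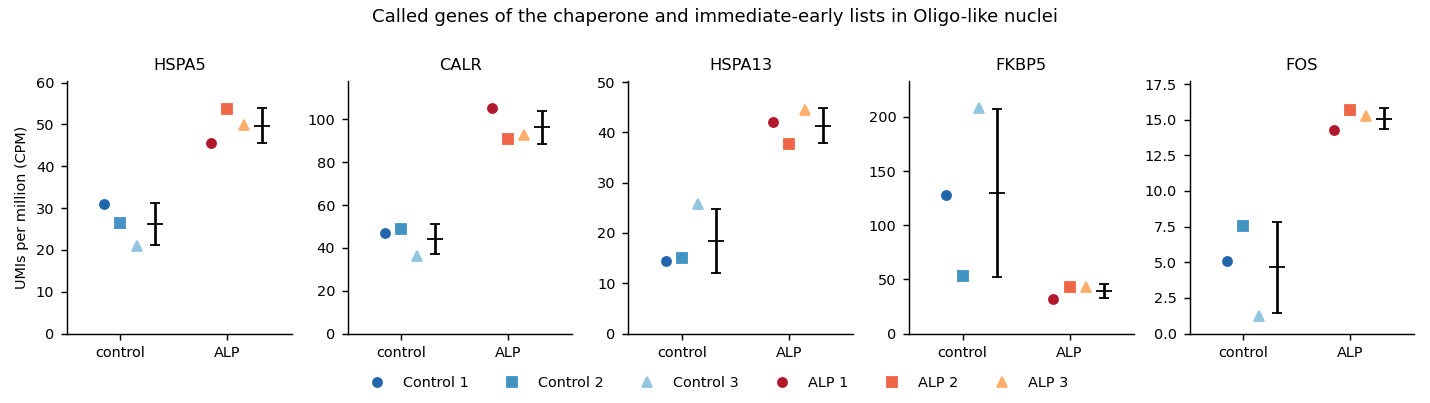
Levels of HSPA5 and of the called genes of the lists in Oligo-like nuclei (y axis, CPM, linear from 0) in control and ALP libraries (x axis), 1 point per library, with mean and SD (n = 3) as black bars. HSPA5, CALR, HSPA13 and FOS are higher and FKBP5 is lower in all 3 ALP libraries than in all 3 control libraries, and FKBP5 runs from 52.8 to 208 CPM among the control libraries. Of all genes tested in Oligo-like nuclei, 22.2% had groups that did not overlap.

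A test of the interaction of class and group asked whether the difference between ALP and control TSs was unequal among the 8 classes. Of the genes with counts, 5 passed the count filter and none was called, where 1.16% of 17061 genes were. The lowest edgeR adjusted p was 0.479 (HSPH1), and HSPA5 had 0.689. The call of HSPA5 in Oligo-like nuclei and its absence elsewhere is therefore not a difference that was shown between classes.

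The libraries of a group differed in the same way in most classes. HSPH1 was higher in ALP 2 than in ALP 1 and ALP 3 in 10 of 10 classes, and so was DNAJA1li14. The same order held in 9 classes for HSPA4 and HSP90AA1li9 and in 8 for HSPA8li1, but in 7 for HSPA5 and in 3 for HSPB1. Among the control libraries Control 1 was highest in 8 classes for HSPH1 and DNAJB1. Classes of 1 library share the animal and the preparation, so these are repeated readings of the same 6 animals.

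**Figure D5:**
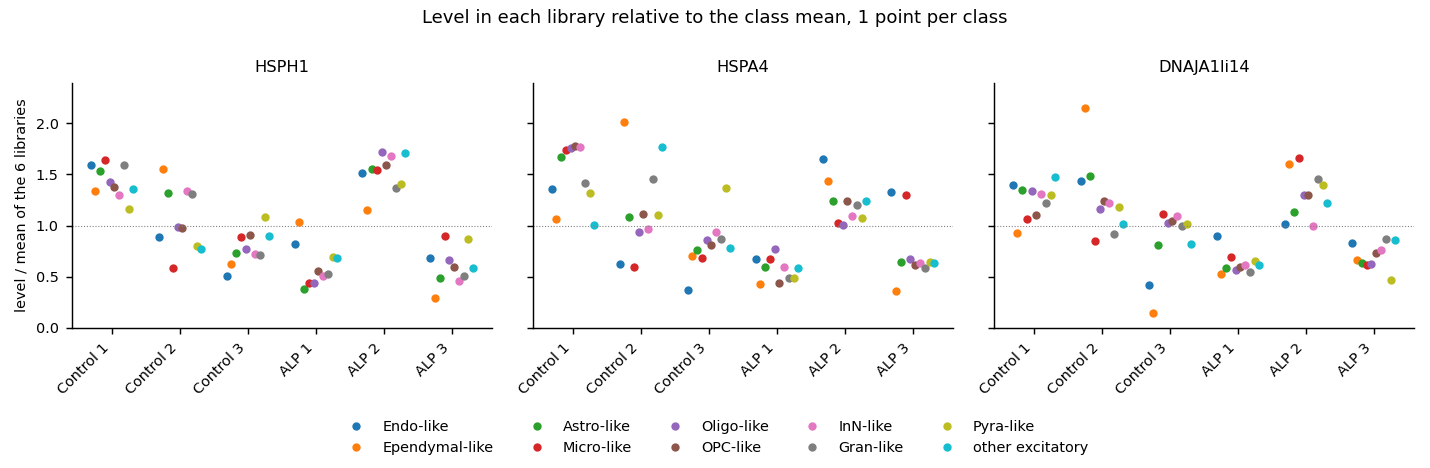
Level of HSPH1, HSPA4 and DNAJA1li14 in each library (x axis) divided by the mean of the 6 libraries in that class (y axis, no unit, linear from 0), 1 point per class. In ALP 2 the points of HSPH1 and DNAJA1li14 lie above those of the same class in ALP 1 and ALP 3 in 10 of 10 classes.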

How the data were processed

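Hippocampal nuclei of 3 control and 3 ALP TSs had been sequenced as 10× Genomics 3′ libraries. The authors deposited raw counts, the UMIs per feature and barcode, as Cell Ranger wrote them (3.1.0 in the submitters' processing notes, 6.1.2 in the matrix headers) against the TreeshrewDB genome. Build, strand and use of introns are not given in the sources used here. RefSeq names are from TupChi_1.0.

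Nuclei with 200 to 2500 genes and under 5% mitochondrial UMIs were kept. No 2 libraries were duplicates (chi-square per gene at least 12.0). Clustering (scanpy 1.11.5, leidenalg 0.10.2, 2000 variable genes, 30 components, 20 neighbours, resolution 2) left out all chaperone lists, the copy features and immediate-early genes. Clusters were named from at least 3 markers, and doublets were scored and kept. Classes for levels needed 20000 UMIs in every library, a limit set after seeing the data. CPM are UMIs per 1000000 UMIs without further factors.

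Sums per library and class were tested with edgeR 4.0.16 in R 4.3.3 (TMM, filterByExpr with minimum count 10), tried first on simulated data; the fold and p therefore include TMM factors. Neighbouring classes were compared with scipy 1.17.1, with a pseudocount of 1 CPM. The study modelled nuclei with sex as a term; here the library was the unit and sex was not a term. Labels do not say more than that libraries came from separate samples, so p-values measure the spread between these samples. Same-numbered libraries were not treated as pairs. The alternatives were DESeq2 1.42.0, upper-quartile normalization, no low-count filter, the replicate block, no upper limit on genes and resolution 1. Others were copy features added to their gene, marked doublets left out, other thinning, a pseudocount of 10 CPM and single libraries left out. All 10 genes are described in every class; of other lists, counts and at most 3 called genes are given. The genes and lists were chosen with earlier results of these data known.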

Additional observations from a re-analysis of the deposited data

Results flagged for a closer look

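Features named as antisense to these genes lay outside the comparisons and held UMIs. Over all barcodes there were 216 UMIs of HSP90AA1-AS-1, 236 of HSP90AB1-AS-1, 1567 of DNAJA1-AS-3, 740 of DNAJA1-AS-5 and 160 of DNAJA1-AS-4, although the sense genes were listed at 0. Of the 236 UMIs of HSP90AB1-AS-1, Control 2 held 105. Use of strand is not given in the sources used here. Whether UMIs of a gene and of its antisense partner were kept apart was not tested.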

How the results depend on the processing

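The direction of HSPA5 in Oligo-like nuclei held under all settings, while its call depended on them. The count of called genes there went from 1 to 0 with DESeq2, with the replicate block and, chosen after seeing the data, in the ALP-rich or the control-rich clusters alone, and it lay between 0 and 1 when single libraries were left out. Without Control 3, ALP 1 or ALP 3, where it was 0, only 14, 3 and 1 of all genes tested there were called. In InN-like nuclei the count went from 0 to 1 (HSPA5) without the filter on low counts and lay between 0 and 1 with single libraries left out, in all nuclei it went to 1 (HSPB1, adjusted p = 0.00130) without the filter, and for copy features it went to 1 (HSPA8li1 in InN-like nuclei) without the filter or without the upper limit on genes, and lay between 0 and 1 with single libraries left out. Thinned to 500 UMIs, 19.4% of Endo-like nuclei had an HSPB1 UMI.

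Same-numbered libraries were not found to be pairs (correlations of deviations over all nuclei -0.12, -0.05 and -0.09), and the replicate block took the calls in Oligo-like nuclei from 537 to 274 genes and HSPA5 to an adjusted p of 0.0715. DESeq2 called 385 genes there. With the block the log2 fold change of HSPB1 in Endo-like nuclei turned to 0.00634 and that of DNAJB1 in Pyra-like nuclei to -0.0495. Without the upper limit on genes DNAJB1 turned to -0.00415 in Pyra-like nuclei and to 0.00935 in InN-like nuclei, and HSPH1 to 0.0827 in all nuclei, as it did to 0.0261 without the low-depth clusters (chosen after seeing the data).

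With single libraries left out, the log2 fold changes that follow turned sign, and the others kept theirs. HSPA5 ranged from -0.00738 to 0.71 in Astro-like and from -0.11 to 0.77 in Micro-like nuclei. HSPA4 ranged from -0.67 to 0.0210 in Astro-like and from -0.51 to 0.53 in Micro-like nuclei. HSPH1 ranged from -0.76 to 0.27 in Micro-like, from -0.84 to 0.26 in Oligo-like, from -0.88 to 0.0648 in OPC-like, from -0.0406 to 0.43 in Pyra-like and from -1.004 to 0.0908 in InN-like nuclei, and from -0.51 to 0.19 in all nuclei. DNAJB1 ranged from -0.30 to 0.32 in Pyra-like nuclei, from -0.41 to 0.29 in InN-like nuclei and from -0.22 to 0.13 in all nuclei. HSPB1 ranged from -0.65 to 0.13 in Astro-like and from -0.43 to 0.39 in Endo-like nuclei, and CRYAB from -0.44 to 0.0525 in Oligo-like nuclei. Of 775 alternatives over 57 results, 689 kept direction and side of the threshold or stayed within the spread. The planned search for heat shock elements was not run, since no promoter sequences were used here. Except where values show it, the cause was not tested.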

Other observations

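The unnamed cluster of 1131 nuclei, whose median depth was 854 UMIs and which was led by HBG, HBQ1 and TTR, held high levels of these genes in all 6 libraries. HSP90AA1li9 lay between 679 and 1118 CPM, HSPA8li1 between 606 and 1056 CPM, DNAJA1li14 between 275 and 458 CPM and HSPH1 between 180 and 388 CPM. HSPA5 lay between 70.9 and 160 CPM and DNAJB1 between 38.1 and 74.8 CPM. The cluster's means of HSP90AA1li9, DNAJA1li14, DNAJB1 and HSPA4 (94.1 CPM) were above those of all 10 classes. Its means of HSPA8li1, HSPA5, HSPH1, HSPB1 and CRYAB were not. For HSPA5 the control libraries were at 156, 150 and 103 CPM and the ALP libraries at 70.9, 118 and 160 CPM over 179 UMIs. Its log2 fold change there was negative, at -0.21 (SE 0.33, edgeR adjusted p = 0.919). In the other unnamed cluster, of 1851 nuclei with a median depth of 723 UMIs, HSPA5 did not overlap between the groups, at 52.4, 46.7 and 29.99 CPM in the control and 62.2, 60.8 and 59.8 CPM in the ALP libraries, which rests on 68 UMIs. HSPB1 there did not overlap either and was lower in ALP, at 52.4, 31.1 and 10.6 CPM in the control and 0, 6.76 and 0 CPM in the ALP libraries over 26 UMIs. Neither gene passed the count filter in that cluster, where 11.4% of the 2364 genes tested did not overlap.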
